A study of Homo sapiens with 24 samples.

Results

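The 9 genes described here encode plasma membrane carriers of amino acids, or a heavy chain of such carriers, and several are known targets of the integrated stress response. The genes are SLC7A5, SLC3A2, SLC7A11, SLC7A1, SLC38A2, SLC38A1, SLC1A5, SLC1A4 and SLC6A9. They were chosen by name, and all 9 were found among the 25559 genes counted in each of 24 RNA-seq libraries. The libraries come from 3 human T-cell lines. HH is a line of cutaneous T-cell lymphoma, PF382 of T-cell acute lymphoblastic leukemia and TLOm1 of adult T-cell leukemia. Each line was left untreated or was exposed for 96 h, with new drug every 24 h, to AZA (5-azacytidine) or to decitabine. HH received AZA at 50, 125 or 250 nM. PF382 and TLOm1 received it at 125, 250 or 500 nM, and all 3 lines received decitabine at 5, 12.5 or 25 nM. Libraries with the title prefix OLC form the AZA set and those with the prefix OC the decitabine set. Each set has its own untreated library of every line, which gives 9 treated and 3 untreated libraries per drug and 1 library per condition.

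Cells take up most amino acids through such carriers, and many of the carriers work in pairs or in sequence. SLC7A5 brings in leucine and other large neutral amino acids in exchange for intracellular glutamine, and it reaches the membrane only when bound to the heavy chain SLC3A2. The same heavy chain carries SLC7A11, which exchanges glutamate for cystine and so feeds glutathione synthesis. Glutamine enters through SLC1A5, SLC38A1 and SLC38A2, small neutral amino acids such as serine and alanine through SLC1A4, arginine and lysine through SLC7A1 and glycine through SLC6A9. When amino acids run short or proteins misfold, phosphorylation of the initiation factor eIF2 favors translation of ATF4, a transcription factor that binds C/EBP-ATF response elements in genes of amino acid synthesis and transport. Activated T cells and T-cell leukemias are known for high amino acid uptake. AZA and decitabine are cytidine analogs that trap DNA methyltransferases once built into DNA. They differ in the sugar, which is ribose in AZA and deoxyribose in decitabine, and AZA is also built into RNA.

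Total counts ranged from 16175077 to 32496676 in the AZA set and from 13892514 to 29793985 in the decitabine set. Levels are given in CPM, counts scaled to a common library total. Of 12 T-cell markers, 8 in HH, 11 in PF382 and 6 in TLOm1 were at 5 CPM or more in both untreated libraries, while CD7, IL2RA and LCK in HH, IL2RA in PF382 and CD3D, CD3G, CD5 and CD7 in TLOm1 stayed under 1 CPM. Summed over 5 B-cell genes, 5 myeloid genes and 7 epithelial and fibroblast genes, untreated libraries held at most 11.8, 5.51 and 82.0 CPM. The epithelial and fibroblast sum was higher in treated libraries of PF382 (19.5 to 55.1 CPM against 10.2 to 12.7) and of TLOm1 (105 to 154 CPM against 49.0 to 82.0), as were the B-cell sum in PF382 (17.8 to 27.4 CPM against 10.6 to 11.8) and the myeloid sum in TLOm1 (5.52 to 8.05 CPM against 4.26 to 5.16). Smaller sums also left their untreated range: B-cell genes in HH (1.92 to 4.32 CPM against 1.81 to 1.89), and myeloid genes upward in PF382 (3.67 to 6.34 CPM against 3.19 to 3.67) and downward in HH (3.58 to 4.58 CPM against 4.82 to 5.51). The T-cell sum of HH was 1853 to 1988 CPM treated against 1741 to 1776. The part of these sums in the results below was not tested.

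The letters that ATF4 and its partners read are shown first, because several of these genes are known ATF4 targets. RefSeq promoter windows on GRCh38.p14, each running from 250 bases before an annotated start to 50 bases after it, were held for 8 of the 9 genes (14 windows, some genes having several starts), and SLC7A11 was not matched. The core TGATGNAA of the C/EBP-ATF response element, searched on both strands, was found in 5 of the 14 windows, those of 5 of these 8 genes, and in 3.62% of all 35116 windows and at least 1 window of 4.46% of 27305 genes. Each match is printed on the strand of its gene, with the core in capitals. Where the core lies on the opposite strand it reads as its reverse complement.
SLC3A2, chr11:62881725-62881748, plus strand, opposite orientation, 37 bases after the start: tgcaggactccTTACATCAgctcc
SLC7A1, chr13:29595663-29595692, minus strand, 7 bases after the start: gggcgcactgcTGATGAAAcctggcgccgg
SLC1A4, chr2:64989381-64989410, plus strand, opposite orientation, 7 bases before the start: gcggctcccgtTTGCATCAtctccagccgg
SLC38A1, chr12:46266502-46266531, minus strand, 4 bases before the start: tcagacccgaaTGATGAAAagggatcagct
SLC1A5, chr19:46784893-46784922, minus strand, 97 bases before the start: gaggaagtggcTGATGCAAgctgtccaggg
The palindrome CACGTG, the E-box bound by MYC and related factors, was searched in the same windows. It was found in 2 of the 14 windows, of the 2 members SLC7A5 and SLC1A5, and in 7.26% of all windows and at least 1 window of 8.77% of genes.
SLC7A5, chr16:87869621-87869648, minus strand, 130 bases before the start: gccggacgacgCACGTGctccgagctgg
SLC1A5, chr19:46787327-46787354, minus strand, 50 bases before the start: gcgggagtggtCACGTGgacaggacggg
The match of SLC1A5 to TGATGNAA and its E-box lie in windows of different annotated starts. The members' windows held 6 to 49 CpG dinucleotides (median 23), against a median of 14 over all windows, whose middle range ran from 4 to 28. These matches describe the letters in the windows, and no binding or methylation was measured.

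Untreated cells differed widely in these carriers. Per kilobase of exon, which puts genes of unequal length on 1 scale, SLC7A5 was the most abundant member in PF382 (116 CPM per kb, mean of 2 libraries) and in TLOm1 (181), whereas SLC38A1 led in HH (60.0) and SLC7A5 came sixth there (27.1). TLOm1 was the highest of the 3 lines for SLC7A5, SLC3A2, SLC7A11, SLC7A1, SLC1A5 and SLC6A9, each past the threshold against both other lines in the edgeR quasi-likelihood fit of the 6 untreated libraries, with adjusted p under 0.05. Against HH, TLOm1 had a log2 difference of 2.73 ± 0.12 (SE) for SLC7A5 (adjusted p = 1.31e-08), 1.54 ± 0.11 for SLC3A2 and 2.60 ± 0.21 for SLC7A11. Counted over the 9 members, TLOm1 was higher than HH for 8 and lower for 0, higher than PF382 for 7 and lower for 0, and PF382 was higher than HH for 5 and lower for 1. With the library set left out of the fit, SLC38A2 no longer passed in TLOm1 (edgeR adjusted p = 0.152) or PF382 (0.0757) against HH. Of 15501 genes tested, 28.1% were higher and 27.6% lower in TLOm1 than in HH, 33.3% higher and 33.9% lower in TLOm1 than in PF382, and 34.4% higher and 32% lower in PF382 than in HH.

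**Figure D1:**
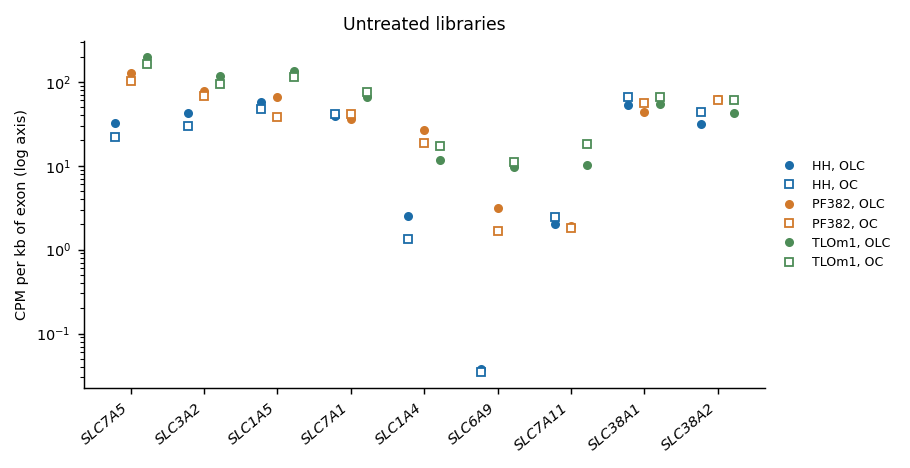
CPM per kilobase of exon (log axis) of the 9 transporters in the 6 untreated libraries, with filled circles for the AZA set (OLC) and open squares for the decitabine set (OC). SLC6A9 in HH sits near 0.04 CPM per kb in both libraries, far under the other lines, and TLOm1 is highest for 6 of the 9 genes by the mean of its 2 libraries.

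SLC1A4 and SLC6A9 showed the widest ranges. Untreated SLC1A4 was at 9.02 ± 3.76 CPM (SD, n = 2) in HH, 68.4 ± 18.5 in TLOm1 and 106 ± 25.8 in PF382, and the difference between TLOm1 and PF382 was within the spread (log2 difference -0.44 ± 0.35, adjusted p = 0.331). SLC6A9 had 4 and 3 counts in the untreated HH libraries, 0.165 and 0.149 CPM, against 10.3 ± 4.54 CPM in PF382 and 45.3 ± 4.37 CPM in TLOm1. SLC38A1 was the most even member, at 463 to 563 CPM by line. HH and TLOm1 did not differ for it past the threshold (log2 difference -0.02 ± 0.10, adjusted p = 0.889), while PF382 was lower than either. When the library set was left out of the fit, PF382 no longer passed against HH (edgeR adjusted p = 0.0526) or TLOm1 (0.0617).

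The 2 untreated libraries of each line were not alike, which matters for every comparison with an untreated library. Across lines, the OC libraries were lower than the OLC libraries for SLC7A5 (log2 difference -0.42 ± 0.09, adjusted p = 0.0194) and SLC3A2 (-0.39 ± 0.09, adjusted p = 0.0255), and 5.03% of 15501 genes were called lower and 5.59% higher. SLC1A5 had a difference of -0.45 ± 0.12 (adjusted p = 0.0509) and SLC38A1 of 0.28 ± 0.08 (adjusted p = 0.0529). Library set and culture cannot be told apart here, so each drug is set against its own untreated libraries below.

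SLC7A5 and SLC3A2, the heterodimer for leucine, went up along the AZA doses and stood below untreated at every decitabine dose. With AZA, SLC7A5 went from 149 CPM untreated to 159.5, 182 and 275 CPM in HH, from 588 to 679, 782 and 1210.1 CPM in PF382 and from 918 to 1026, 1301 and 1707 CPM in TLOm1. Every treated library stood above the untreated library of its line, and the order followed the dose in all 3 lines. At the highest dose the level was 1.85 times the untreated one in HH, 2.06 times in PF382 and 1.86 times in TLOm1. With decitabine, SLC7A5 went from 100.0 CPM to 82.0, 59.3 and 56.5 CPM in HH, from 472 to 366, 299 and 270.1 CPM in PF382 and from 746 to 667, 673 and 657 CPM in TLOm1. Here all 9 treated libraries stood below their untreated library, by least in TLOm1, which ended at 0.88 of its untreated level against 0.56 in HH and 0.57 in PF382. The order followed the dose in HH and PF382 but not in TLOm1. Fewer cells that carry a transcript and less of it per cell cannot be told apart in these bulk libraries.

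The heavy chain moved with the same signs. SLC3A2 with AZA went from 114 CPM to 124, 129 and 159.8 CPM in HH, from 206 to 248, 272 and 403 CPM in PF382 and from 314 to 325, 399 and 552 CPM in TLOm1. With decitabine it went from 78.0 CPM to 73.8, 68.3 and 64.1 CPM in HH, from 178 to 154, 123 and 121 CPM in PF382 and from 251 to 212, 219.9 and 199 CPM in TLOm1. All 9 AZA libraries were above and all 9 decitabine libraries below the untreated library of their line, though with decitabine the order did not follow the dose in TLOm1. The doses of the drugs do not match and their libraries belong to different sets, so the difference between the drugs was not tested.

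**Figure D2:**
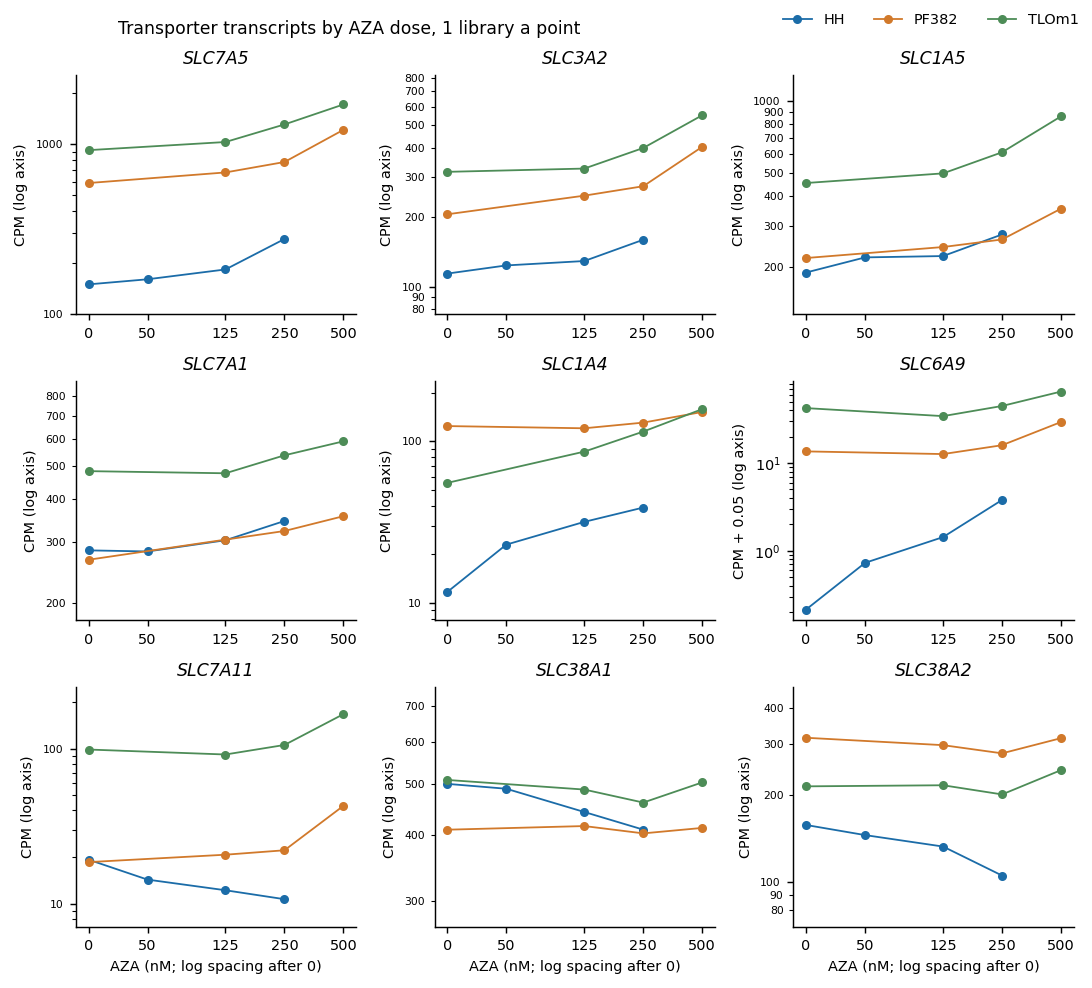
CPM (log axis) of each transporter against the AZA dose in nM, untreated at 0, with 1 point per library and a line joining the libraries of a cell line. For SLC6A9, 0.05 was added to every value so that low values can be drawn. SLC7A5, SLC3A2 and SLC1A5 climb at every dose step in all 3 lines, while SLC7A11, SLC38A1 and SLC38A2 decline in HH only along their whole dose range.

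SLC7A11, the cystine carrier that shares the heavy chain, differed between lines in its direction. Its level with AZA went from 19.3 CPM to 14.3, 12.2 and 10.7 CPM in HH, but from 18.6 to 20.8, 22.2 and 42.9 CPM in PF382 and from 98.8 to 91.8, 106 and 167 CPM in TLOm1. HH was thus below its untreated library at all 3 doses, and the other lines reached their highest level at 500 nM, a dose that HH did not receive. The difference between lines did not pass in the edgeR F test (adjusted p = 0.501). With decitabine, SLC7A11 went from 23.7 CPM to 21.9, 20.6 and 16.2 CPM in HH, from 17.3 to 19.9, 18.5 and 20.9 CPM in PF382 and from 174 to 116, 81.5 and 96.5 CPM in TLOm1.

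The arginine and lysine carrier SLC7A1 moved with the heterodimer but over a narrow range. With AZA it went from 284 CPM to 282, 304 and 346 CPM in HH, from 267 to 305, 324 and 357 CPM in PF382 and from 483 to 476, 537 and 589 CPM in TLOm1. Its decitabine values were 301, 291, 285 and 296 CPM from untreated to 25 nM in HH, 300.3, 279, 258 and 244 CPM in PF382 and 562, 549, 494 and 502 CPM in TLOm1. Of the treated libraries, 7 of 9 were above their untreated library with AZA and 9 of 9 below it with decitabine.

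Of the glutamine carriers, SLC1A5 followed SLC7A5 with AZA and changed little with decitabine. AZA took it from 190.1 CPM to 220.2, 223 and 275 CPM in HH, from 219 to 243, 262 and 353 CPM in PF382 and from 453 to 498, 611 and 866 CPM in TLOm1. The decitabine series ran 160.0, 152, 147 and 149 CPM in HH, 127, 128, 112 and 111 CPM in PF382 and 385, 365, 367 and 364 CPM in TLOm1. All 9 AZA libraries lay above their untreated library, by up to 1.91 times, and 8 of 9 decitabine libraries lay below it, at no less than 0.874 of its level.

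SLC38A1 and SLC38A2, sodium-coupled carriers of glutamine and alanine, did not share that pattern. SLC38A1 with AZA stood at 499.5, 489, 442 and 409 CPM in HH, 409, 416, 403 and 412 CPM in PF382 and 508, 487, 460.5 and 503 CPM in TLOm1, and with decitabine at 620.4, 621, 609.5 and 517 CPM, 518, 474, 480.3 and 475 CPM and 617, 564, 479 and 532 CPM in the same lines. SLC38A2 with AZA was at 158, 145, 133 and 105 CPM in HH, 315, 297, 278 and 314 CPM in PF382 and 214, 216, 201 and 244 CPM in TLOm1. Its decitabine series fell step by step in HH (220.2, 204, 185 and 173 CPM) and climbed step by step in PF382 (300.3, 318, 385 and 438 CPM), with 304, 266, 238 and 255 CPM in TLOm1. The difference between lines for SLC38A2 with decitabine did not pass in edgeR (adjusted p = 0.55). Across lines, 7 of 9 AZA libraries were below their untreated library for either gene.

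SLC1A4, a carrier of serine, alanine and cysteine, stood higher with both drugs in HH, where its untreated level was lowest. In HH it went from 11.7 CPM to 22.9, 31.7 and 38.9 CPM with AZA and from 6.36 to 15.8, 23.5 and 33.0 CPM with decitabine, 3.33 and 5.18 times the untreated level at the highest doses. TLOm1 went from 55.3 CPM to 86.3, 115 and 158 CPM with AZA, and its decitabine series was 81.4, 79.6, 101 and 101 CPM. PF382 stayed within 120.4 to 152 CPM with AZA (124 untreated) and within 87.3 to 95.2 CPM with decitabine (87.8 untreated). In the fit of all 24 libraries the log2 effect in HH was 1.42 ± 0.38 with AZA (edgeR adjusted p = 0.179) and 1.88 ± 0.43 with decitabine (adjusted p = 0.338). The difference between lines did not pass for AZA (edgeR adjusted p = 0.387) or decitabine (adjusted p = 0.412).

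The glycine carrier SLC6A9 was near the limit of detection in HH. There it had 4, 11, 45 and 93 counts from untreated to 250 nM AZA (0.165, 0.680, 1.38 and 3.75 CPM), and 3, 0, 4 and 11 counts with decitabine. PF382 went from 13.5 CPM to 12.6, 15.9 and 29.3 CPM with AZA and from 7.10 to 5.91, 3.68 and 3.31 CPM with decitabine. TLOm1 went from 42.2 CPM to 34.2, 44.6 and 65.2 CPM with AZA and from 48.4 to 32.7, 22.2 and 26.8 CPM with decitabine. In PF382 and TLOm1 the lowest AZA dose lay below and the highest dose above the untreated library, and all 6 decitabine libraries lay below it.

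**Figure D3:**
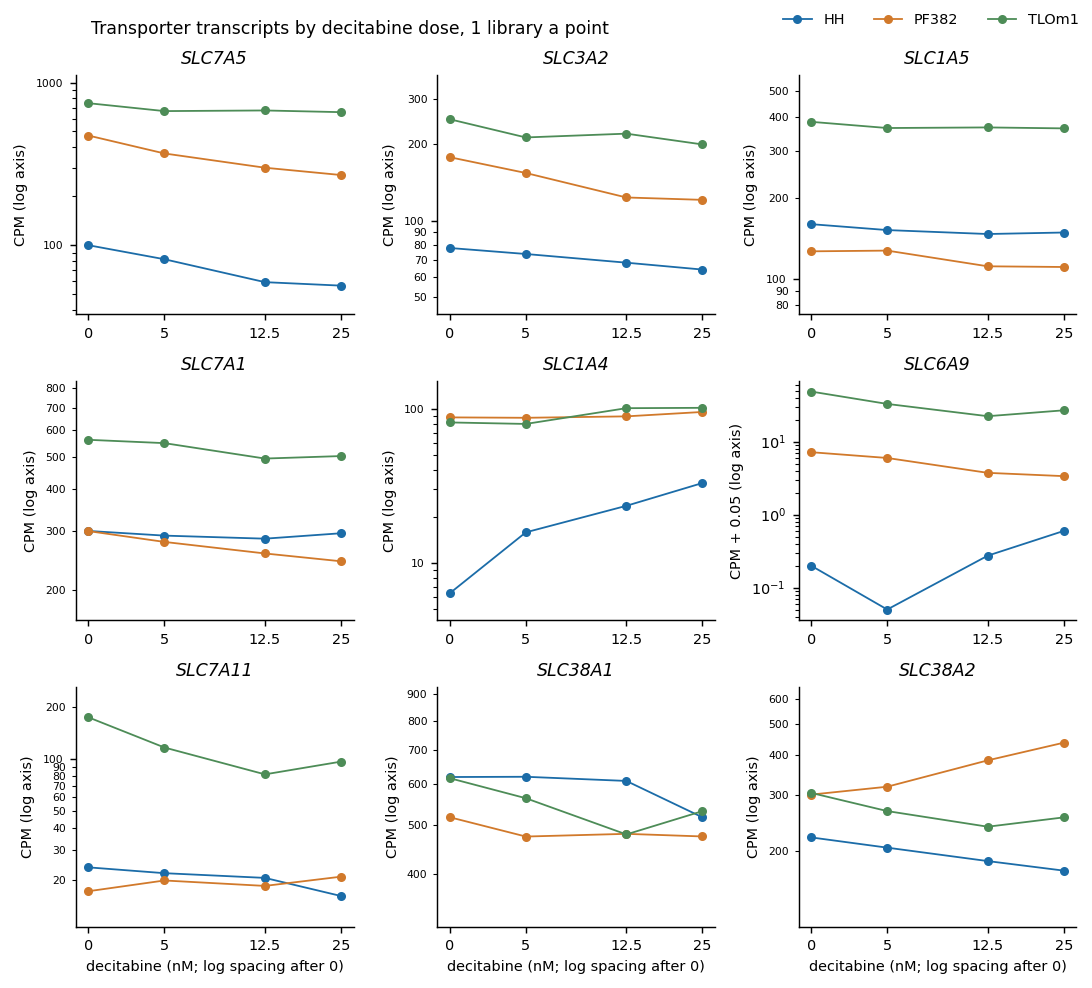
CPM (log axis) of each transporter against the decitabine dose in nM, untreated at 0, with 1 point per library and a line joining the libraries of a cell line. For SLC6A9, 0.05 was added to every value. SLC7A5, SLC3A2 and SLC7A1 lie below their untreated library at every dose in all 3 lines, SLC1A4 climbs from 6.36 to 33.0 CPM in HH, and SLC38A2 climbs in PF382 while it declines in HH.

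Whether all treated libraries together differed from untreated ones was tested with edgeR, with cell line as a block. With AZA, 0 of the 9 members passed an adjusted p of 0.05 in either direction, although 5 had an unadjusted p under 0.05, all higher. Over 16107 genes, 0.857% were called higher and 0.317% lower, and at an unadjusted p under 0.05, 2002 were higher and 1375 lower. The estimates were a log2 change of 0.79 ± 0.26 for SLC1A4 (adjusted p = 0.132), 0.53 ± 0.21 for SLC7A5 (0.181), 0.41 ± 0.15 for SLC1A5 (0.171), 0.41 ± 0.17 for SLC3A2 (0.194) and 0.18 ± 0.08 for SLC7A1 (0.216). With decitabine, 0 members passed either, and 0 of 15892 genes, or 0%, were called higher and 0% lower. For 7 members the unadjusted p was under 0.05, all lower, led by SLC3A2 (log2 change -0.31 ± 0.08) and SLC7A5 (-0.48 ± 0.13), both with an adjusted p of 0.15. At that unadjusted p, 974 of the 15892 genes were lower and 1518 higher. SLC1A4 had a decitabine estimate of 0.49 ± 0.29 (adjusted p = 0.425). With DESeq2 in place of edgeR, SLC1A4 passed with AZA (adjusted p = 0.0247), as it did in edgeR without the untreated library of PF382 (0.0418). SLC7A5 (0.0181) and SLC3A2 (0.0301) passed with decitabine in DESeq2. Over all genes DESeq2 called 740 higher and 375 lower with AZA, and 295 higher and 174 lower with decitabine.

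Line by line, each effect rests on 1 untreated library, and 0 of 9 members passed in any line with either drug. Called in any direction with AZA were 0% of 16809 genes in HH, 0.94% in PF382 and 1.21% in TLOm1. The decitabine shares were 0% for HH, 0.28% for PF382 and 0% for TLOm1. The smallest unadjusted p of a member was that of SLC1A4 in HH with decitabine (0.000491). No member passed the test of a difference between lines, which called 0.0654% of genes for AZA and 0.00595% for decitabine.

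The dose dependence was clearer. Over the 9 treated AZA libraries alone, 6 of 9 members rose with dose and 0 fell, against 8.04% of 16450 genes called higher and 6.19% called lower. Per doubling of the dose, the log2 change was 0.36 ± 0.04 for SLC7A5 (edgeR adjusted p = 0.000805), 0.27 ± 0.04 for SLC3A2 (0.00493), 0.24 ± 0.05 for SLC1A5 (0.00884) and 0.12 ± 0.02 for SLC7A1 (0.0096). SLC1A4 had 0.30 ± 0.04 (0.0025) and SLC6A9 0.61 ± 0.09 (0.00341). The median over the 9 members was 0.27 and that over all genes 0.01. SLC7A11 had 0.27 ± 0.13 (adjusted p = 0.204), SLC38A1 -0.05 ± 0.03 (0.298) and SLC38A2 -0.04 ± 0.05 (0.610). When HH was left out, SLC7A11 passed as well, at 0.47 (adjusted p = 0.00994), as it did without the 50 nM library of HH (0.033). SLC1A5 no longer passed without PF382 (adjusted p = 0.0534), nor SLC7A1 without TLOm1 (0.0549).

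Over the 9 treated decitabine libraries, 1 of 9 members fell with dose and 0 rose, against 0.991% of 16248 genes called lower and 2.6% called higher. That member was SLC7A5, with a log2 change of -0.16 ± 0.04 per doubling (edgeR adjusted p = 0.0477), and the call was lost when any of 7 treated libraries was left out (adjusted p = 0.0812 to 0.19) and without the line HH or PF382. SLC3A2 had -0.11 ± 0.03 (adjusted p = 0.0743), passing without the 5 nM library of TLOm1 (0.0205), and SLC1A4 0.18 ± 0.06 (0.156).

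A trend over dose rank, with untreated as 0 and the highest dose of each line as 3, used all 12 libraries of a set. It called 6 of 9 members higher and 0 lower with AZA, against 12% of 16107 genes higher and 9.39% lower. These were again SLC7A5 (log2 change of 0.30 ± 0.03 per dose step, edgeR adjusted p = 6.59e-05), SLC3A2 (0.24 ± 0.03, 0.000363), SLC1A5 (0.22 ± 0.03, 0.000397), SLC7A1 (0.10 ± 0.02, 0.002), SLC1A4 (0.36 ± 0.07, 0.00612) and SLC6A9 (0.41 ± 0.12, 0.028). SLC1A4 no longer passed without TLOm1 (adjusted p = 0.106). SLC6A9 no longer passed when the 500 nM library of PF382 (0.0884) or of TLOm1 (0.066) was left out, or either of these lines. SLC7A11 (0.14 ± 0.09, 0.337) passed only without the line HH (0.0153) or its untreated library (0.0484).

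With decitabine the same trend called 5 of 9 members lower and 0 higher, against 5.38% of 15892 genes lower and 8.6% higher. SLC3A2 had a log2 change of -0.14 ± 0.02 per dose step (edgeR adjusted p = 0.00187), SLC7A5 -0.22 ± 0.04 (0.00371), SLC38A1 -0.08 ± 0.02 (0.0171), SLC7A1 -0.07 ± 0.02 (0.0199) and SLC1A5 -0.06 ± 0.02 (0.0462). The call of SLC1A5 was lost when any of 9 treated libraries was left out, with an adjusted p of 0.0524 to 0.131. SLC38A1 no longer passed without the 25 nM library of HH (0.0704) or without the line HH (0.0852). SLC7A1 no longer passed without the untreated (0.0768) or the 25 nM library of PF382 (0.0615), nor without the line PF382 (0.166) or TLOm1 (0.0544), and SLC7A5 not without the line PF382 (0.0612). SLC7A11 (-0.17 ± 0.06, adjusted p = 0.0684), SLC6A9 (-0.30 ± 0.10, 0.071), SLC1A4 (0.24 ± 0.10, 0.141) and SLC38A2 (-0.02 ± 0.04, 0.792) did not pass. SLC7A11 did so without the untreated (0.0219) or the 25 nM library of PF382 (0.0311), SLC6A9 without the 5 nM (0.037) or the 25 nM library of HH (0.0133), and SLC38A2 without the line PF382 (0.00613). The trend shares its untreated libraries with the comparison of treated and untreated libraries, and its treated libraries with the slope.

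**Figure D4:**
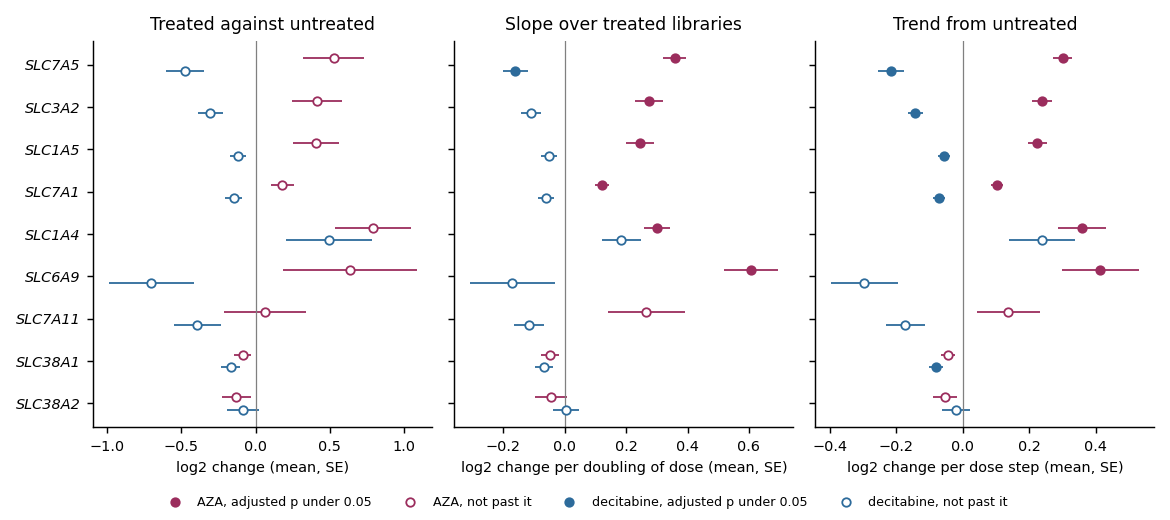
log2 changes with SE of the 9 transporters, as treated against untreated libraries, per doubling of the dose over treated libraries, and per dose step from untreated, for AZA (red) and decitabine (blue). Filled points had an adjusted p under 0.05 over all genes tested. No point is filled in the first panel, 6 AZA points are filled at positive values in each of the others, and the filled decitabine points, 1 and 5 in number, are at negative values.

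The spread behind these tests comes from libraries of 3 doses in each of 3 lines. In the comparisons with untreated libraries it includes differences between the doses. In the slopes and trends it is the scatter around a dose slope shared by the 3 lines. The labels do not state whether each dose was a separate culture or experiment, so the p-values may measure technical spread.

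Other carriers of amino acids were put through the same tests. Of 31 further transporters 30 were in the files and 20 were tested against untreated, with a median log2 change of 0.10 with AZA and 0.00 with decitabine, against 0.01 and 0.02 over all genes. In that test 1 was called higher and 0 lower with AZA (0.857% and 0.317% of all genes), and 0 with decitabine (0%). SLC43A2, a carrier of branched-chain amino acids and phenylalanine, was the gene called, at 1.36 with AZA (edgeR adjusted p = 0.0202). With decitabine SLC43A2 was at 1.03 (adjusted p = 0.161). Its level in HH went from 1.19 CPM to 1.98, 3.17 and 3.02 CPM with AZA, and the highest levels, 25.2 to 29.9 CPM, were those of PF382 at the 3 AZA doses. SLC43A1, of the same family, rose along the AZA doses at 1.01 per doubling (adjusted p = 0.00242), mainly in PF382, where it went from 4.23 to 27.8 CPM, while HH and TLOm1 stayed at or under 1.09 CPM. SLC6A6 (log2 change -0.25) and SLC38A9 (0.19) did not pass with AZA. Of the 20, 1 rose and 0 fell in the AZA slope (8.04% and 6.19% of all genes). In the AZA trend 3 rose and 0 fell (12% and 9.39%). With decitabine, 0 of 22 tested rose or fell in the slope (2.6% and 0.991%). In the decitabine trend 2 of 20 rose and 0 fell (8.6% and 5.38%).

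Of 29 stress response regulators and targets, many of them under ATF4 control like several of the transporters, 28 were tested. Against untreated, 0 were called by edgeR with either drug. At an unadjusted p under 0.05, 4 were higher and 2 lower for AZA, and 0 higher and 13 lower for decitabine. Over all genes, 2002 of 16107 were higher and 1375 lower at that p for AZA. For decitabine 1518 of 15892 were higher and 974 lower. For AZA, 11 rose and 1 fell in the slope (8.04% and 6.19% of all genes) and 10 rose and 1 fell in the trend (12% and 9.39%). For decitabine, 0 rose and 4 fell in the slope (2.6% and 0.991% of all genes), where 11 of 28 estimates were above 0, and 0 rose and 10 fell in the trend (8.6% and 5.38%). ATF5, a paralog of ATF4, had a slope of 0.61 per doubling of AZA (edgeR adjusted p = 0.0109) and 0.17 per doubling of decitabine (0.685). The proline synthesis enzyme PYCR1 had slopes of 0.04 (0.523) and -0.15 (0.0399). MTHFD2, of mitochondrial folate metabolism, had 0.06 (0.226) and -0.02 (0.787), and DDIT4, an inhibitor of mTORC1, had -0.08 (0.836) and 0.08 (0.650). ATF4 itself, named after its values were seen, had slopes of 0.16 ± 0.04 with AZA (0.0159) and -0.09 ± 0.02 (0.0719) with decitabine, and a decitabine trend of -0.11 ± 0.02 per step (0.00405). Against untreated with AZA, however, ATF4 did not pass (0.04 ± 0.11, edgeR adjusted p = 0.875).

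Genes of NRF2 control and glutathione synthesis, to which SLC7A11 belongs by function, included 14 that were tested. Of these, 3 rose and 1 fell in the AZA slope and 7 rose and 1 fell in the AZA trend. For decitabine, 1 rose and 0 fell in the slope and 2 rose and 0 fell in the trend. The shares over all genes are those given for the stress response genes. NQO1, a quinone reductase, rose with both, at 0.59 (edgeR adjusted p = 0.00324) and 0.40 (0.0143) per doubling. KEAP1, the repressor of NRF2, was the 1 gene of the list called against untreated with AZA (0.34, edgeR adjusted p = 0.0469). In that test 0.857% of all genes were called higher and 0.317% lower. GCLC, of glutathione synthesis, had an AZA estimate of 0.21 (0.128). Among 17 genes of glutamine and leucine use, 2 rose and 2 fell in the AZA slope, and 1 rose and 3 fell in the AZA trend. With decitabine, 0 rose in either test, 1 fell in the slope and 5 fell in the trend, against the same shares over all genes. MYC, a known activator of SLC7A5 and SLC1A5, fell with both drugs, at -0.18 per doubling of AZA (adjusted p = 0.0141) and -0.28 per doubling of decitabine (0.0055). The slopes of SLC7A5 were 0.36 with AZA and -0.16 with decitabine, and a link between MYC and these carriers was not tested. The aminotransferase GOT2 fell with AZA (-0.16 per doubling, 0.0193), and LARS and GOT1 had AZA estimates of 0.16 (0.138) and -0.21 (0.154) against untreated.

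How closely the transporters tracked each other was described by Pearson's r of log2 CPM, centred within each line and set, over the 24 libraries and against 10803 genes with a mean of at least 5 CPM. These points share untreated libraries, drugs and lines, so r is a description. SLC3A2 was most like SLC1A5 (r = 0.934), SLC7A5 (0.934) and SLC7A1 (0.903), which took ranks 1 to 3 of all genes. SLC7A5 was most like SLC3A2, followed by C17orf76-AS1 (0.925) and TMEM222 (0.922), with SLC7A1 at rank 8 and SLC1A5 at rank 10. SLC1A5 had SLC3A2 first, then RNF187 (0.932) and SEC16A (0.911). SLC7A1 had its 3 nearest genes outside the group, ATXN2L (0.915), ASPSCR1 (0.907) and PCK2 (0.906), with SLC3A2 at rank 4.

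The other 5 members, like SLC7A1, had their nearest genes outside the group. SLC7A11 was most like DNAJB2 (0.928), SCYL2 (0.900) and C14orf118 (0.876), and its r with its partner SLC3A2 was 0.525. SLC1A4 was most like GGT7 (0.956), ZNF302 (0.933) and ATMIN (0.933), with an r of 0.093 to SLC7A5. SLC6A9 was nearest to ZNF764 (0.912), DNAJC5 (0.856) and ZNF227 (0.848). SLC38A2 was nearest to SOX4 (0.910), MXI1 (0.899) and TP53INP2 (0.895), and SLC38A1 to RSL24D1 (0.944), ZBTB11 (0.920) and ZNF800 (0.905). Between SLC38A1 and SLC1A4 r was -0.636.

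**Figure D5:**
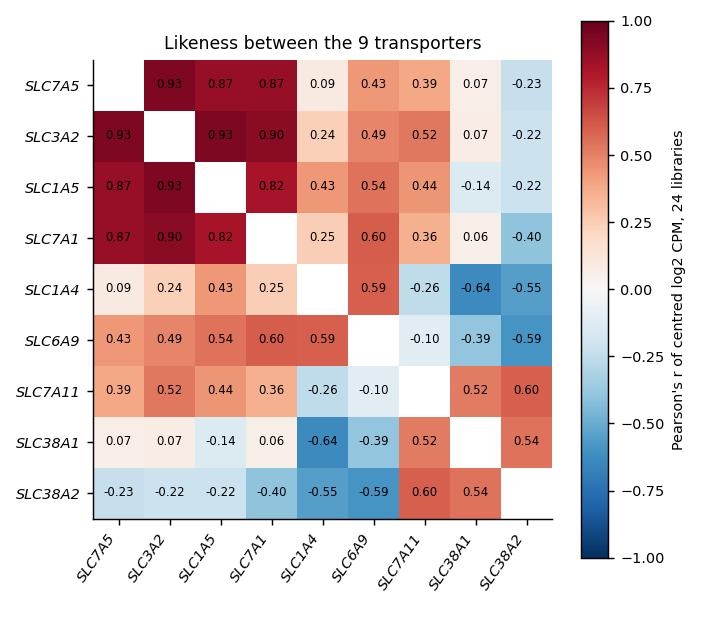
Pearson's r of log2 CPM, centred within line and set, between each pair of the 9 transporters over 24 libraries, from blue (negative) to red (positive). SLC7A5, SLC3A2, SLC1A5 and SLC7A1 form a block with r of 0.823 to 0.934, and SLC38A1 and SLC38A2 are negative or near 0 against it.

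Reads of SLC7A5 can also fit its near-identical copies SLC7A5P1 and SLC7A5P2, and how the counting treated such reads is not given. The copies together held 0.415% to 8.45% of the count of SLC7A5, with the highest share in HH, and neither was called in any of the drug tests. In PF382 and TLOm1 the copies held at most 2.56% and 0.857%. Reads that fit several of these genes may have been left out of every count, so these shares set no limit on how shared reads bear on SLC7A5, which was not tested.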

How the data were processed

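Gene counts of 24 RNA-seq libraries were used as deposited: whole read counts per gene, not normalized, which per the labels came from processing with the build GRCh37.p2 and the tools limma, STAR and DESeq2, given with no version or role. The annotation, the read counter and its strand setting were not given in the sources used here, and the labels describe both poly-A RNA and total RNA depleted of ribosomal RNA. Total counts were 13892514 to 32496676 per library. A count of 0 allows up to 3 counts, for counting error only. The paper linked to these data reports other cells and was not used for results.

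The tests used edgeR 4.0.16 (quasi-likelihood, robust, TMM, filterByExpr with minimum count 10 and minimum total count 15) in R 4.3.3, on all genes, with cell line as a block, since untreated and treated libraries of a line share that line. Benjamini-Hochberg adjustment was over all genes tested, and calls needed an adjusted p under 0.05. SE was derived from the log2 change and the F statistic. Alternatives were RLE factors, no filter, DESeq2 1.42.0, limma 3.58.1 voom, no block, libraries or lines left out, summed doses and both untreated libraries as controls. The tests of AZA and decitabine against untreated and the AZA slope were checked on simulated counts. Those were independent libraries with changes equal in all lines, a setting that these data need not share. Exon lengths came from GENCODE v29 (GRCh38), promoter windows from RefSeq (GRCh38.p14). Named genes were the 9 members, up to 4 genes of each list with the smallest p in the AZA test, and the 3 genes most like each member, with LOC identifiers passed over. Other names are marked, and 1 gene that this rule picks is not reported here. The members, lists and tests were chosen with earlier results of these data known.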

Additional observations from a re-analysis of the deposited data

How the results depend on the processing

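Without the replicate block for cell line, 0 members were called in the AZA slope, the decitabine slope and both trends over dose rank. Over all genes, 0 were then called in either slope, 19 higher and 1 lower in the AZA trend, and 2 higher and 0 lower in the decitabine trend. HH received lower AZA doses, so without the block line and dose are mixed in the AZA slope (SLC7A5 at 0.77 per doubling against 0.36). Without the library set as a block, 0 members were lower in untreated PF382 than in HH. With DESeq2, members called were 1 higher for AZA against untreated, 2 lower for decitabine against untreated, and 1 higher and 2 lower in the decitabine slope. Over all genes DESeq2 called 740 higher and 375 lower for AZA against untreated (edgeR 138 and 51). For decitabine against untreated it called 295 higher and 174 lower (edgeR 0 and 0), and in the decitabine slope 272 lower (edgeR 161). Using both untreated libraries of a line as controls adds the difference between the sets. Members called were then 4 higher and 1 lower with AZA and 4 lower with decitabine. By line they were 2 higher and 1 lower with AZA in HH, 1 higher with AZA in TLOm1 and 1 higher with decitabine in HH. Over all genes, that setting called 1768 higher and 1184 lower with AZA, against 138 and 51 in the main fit. With decitabine it called 747 higher and 1049 lower, against 0 and 0. By line, 656 genes were higher and 451 lower with AZA in HH, 1172 higher with AZA in TLOm1 and 167 higher with decitabine in HH. The decitabine slope had 2 members lower without a filter, 0 with limma voom, 0 without the line HH, 1 higher and 0 lower without PF382, and 2 lower without TLOm1. Over all genes it called 297 lower without a filter and 16 without HH, against 161 in the main fit, and 271 higher and 82 lower without PF382. With 1 library left out it had 0 to 2 members lower, and AZA against untreated had 0 to 1 higher. Between untreated sets, 1 member (SLC38A1) was called higher with RLE factors and 1 with no filter, and SLC1A5 was added to the members called lower in both (adjusted p = 0.0448 and 0.016).

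Changes of sign were seen mainly for SLC7A11 and SLC38A2, none of them past the threshold as reported. SLC7A11 with AZA against untreated was -0.17 without PF382, -0.085 without TLOm1, -0.10 with both controls and -0.17 to 0.44 with 1 library left out. SLC38A2 was 0.040 for decitabine against untreated with both controls (-0.26 to 0.0056 with 1 library left out). In the AZA slope it was 0.18 without the block, 0.054 without HH and -0.10 to 0.025 with 1 library left out. In the decitabine slope it was -0.0021 without a filter, -0.081 without PF382 and -0.059 to 0.047 with 1 library left out. Its trends were 0.010 for AZA without HH, and for decitabine 0.028 without HH, 0.013 without TLOm1 and -0.066 to 0.0071 with 1 library left out. SLC6A9 had a decitabine slope of 0.12 with DESeq2. With both controls, AZA in TLOm1 gave -0.20 for SLC38A2 and -0.13 for SLC7A11, and decitabine gave 0.025 for SLC38A1 in HH and -0.31 for SLC1A4 in PF382, where no filter gave -9.4e-05. RLE factors changed the sign of no member. The cause of the other changes was not tested. Values of SLC6A9 in HH rest on few counts, with 4 and 3 in the untreated libraries.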
